A study of Mus musculus with 18 samples.

Results

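The star strand assays were 105 TaqMan low density array (TLDA) assays for mouse miRNAs whose name ends in a star, out of 584 miRNA assays on the cards. They were taken by name alone, and the 5 star assays of the miR-30 family were left out. MiRNAs were measured in livers of C57BL/6 male pups at postnatal day (PND) 15, 4 control and 4 hypothyroid, numbered C1 to C4 and H1 to H4. Dams of the hypothyroid pups drank sugar water with 0.05% methimazole (MMI) and 1% perchlorate from PND 12, and dams of the control pups drank sugar water. Per the methods, pups of both groups were given PBS 4 hours before sacrifice and each pup was from another litter. Per the labels C1, C2, H1 and H2 came from study 1, and C3, C4, H3 and H4 from study 2. In RNA of bulk liver, fewer cells of a type and less miRNA per cell cannot be told apart.

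A miRNA is cut from a hairpin precursor as a short duplex, of which one strand, the guide, is kept in Argonaute, while the other, the passenger or star strand, is mostly degraded. Both strands are made in equal number from each precursor, so for a miRNA of a single hairpin the ratio of star to guide reflects which strand is kept and for how long. Argonaute favours a strand with a 5′ U and a loosely paired 5′ end, and targets are found mainly through the seed, bases 2 to 8. Some stars are kept in appreciable amount and have their own targets, and their seeds differ from those of their guides.

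A mature sequence was found for 78 of the 105 stars in the RefSeq table of GRCm38.p6, 49 from the 3p arm of the hairpin and 29 from the 5p arm. The 8 stars with the lowest mean delta Ct are shown first, 5′ to 3′ with the seed in capitals, because they were read earliest against U6.
miR-483*: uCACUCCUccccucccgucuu
miR-93*: aCUGCUGAgcuagcacuucccg
miR-503*: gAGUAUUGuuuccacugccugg
miR-7a*: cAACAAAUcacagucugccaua
miR-31*: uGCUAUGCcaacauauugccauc
miR-322*: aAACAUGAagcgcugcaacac
miR-28*: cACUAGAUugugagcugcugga
miR-376b*: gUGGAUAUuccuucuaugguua
MiR-483* lies at chr7:142654932-142654952 (minus strand), within the span of Igf2, and miR-93* lies at chr5:138165536-138165557 (minus strand), within the span of Mcm7. MiR-503* and miR-322* are neighbours on chromosome X at chrX:53053987-53054008 (minus strand) and chrX:53054269-53054289 (minus strand), with 201 bases between their hairpins. MiR-7a* lies at chr13:58392800-58392821 (minus strand) within the span of Hnrnpk, miR-31* at chr4:88910577-88910599 (minus strand), miR-28* at chr16:24827908-24827929 (plus strand) and miR-376b* at chr12:109723471-109723492 (plus strand).

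The next set holds the 5 stars named for the smallest p of star minus guide, and miR-186*, named for the p of the star, because the comparison of the strands turns on them. Guides are shown for 5 of the 6.
miR-181a-1*: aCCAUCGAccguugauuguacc
miR-181a: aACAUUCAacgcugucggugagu
miR-27b*: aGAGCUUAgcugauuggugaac
miR-27b: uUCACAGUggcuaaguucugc
miR-130b*: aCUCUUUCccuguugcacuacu
miR-130b: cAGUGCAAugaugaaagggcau
miR-7a: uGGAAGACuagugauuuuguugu
miR-150*: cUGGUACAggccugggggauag
miR-186*: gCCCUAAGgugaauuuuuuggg
miR-186: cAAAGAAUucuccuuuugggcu
MiR-181a-1* is at chr1:137966508-137966529 (plus strand), outside the span of other genes in the table. MiR-27b* is at chr13:63300718-63300739 (plus strand) within the span of Aopep, miR-130b* at chr16:17124109-17124130 (minus strand), miR-150* at chr7:45121798-45121819 (plus strand) and miR-186* at chr3:157544324-157544345 (plus strand) within the span of Zranb2. Positions are those of the mature star.

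The last set holds stars that were read earlier than their guides, stars that share a seed, and miR-148a*, one of the stars the study lists. Of the 78 stars with a sequence, 4 pairs shared a seed.
miR-877*: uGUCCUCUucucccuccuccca
miR-877: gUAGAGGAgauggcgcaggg
miR-674*: cACAGCUCccaucucagaacaa
miR-674: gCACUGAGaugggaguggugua
miR-503: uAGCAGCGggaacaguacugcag
miR-200a*: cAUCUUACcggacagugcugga
miR-200b*: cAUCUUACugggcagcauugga
miR-24-1*: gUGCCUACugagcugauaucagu
miR-24-2*: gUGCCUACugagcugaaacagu
miR-148a*: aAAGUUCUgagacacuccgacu
MiR-200a* and miR-200b* share the seed AUCUUAC and have 696 bases between their hairpins on chromosome 4, whereas miR-24-1* (chromosome 13) and miR-24-2* (chromosome 8) share UGCCUAC and the guide miR-24. The other pairs with a common seed were miR-17* with miR-20b*, and miR-376b* with miR-376c*. The first base and the GC content are given as a description, with no test. A 5′ U was present in 14 of 78 stars and 41 of 73 guides, and a 5′ C in 28 of 78 stars and 8 of 73 guides. The median GC content was 50% for stars and 43.5% for guides. Among the stars read in all 8 animals 7 of 27 began with U, and among those read in none 2 of 16.

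All stars were on card B, whereas 90 of the 96 stars with a guide assay had the guide on card A, so each star and guide were referred to the U6 wells of different cards. U6 was read 1.59 cycles earlier on card B than on card A (range of the 8 animals -2.13 to -1.07), while the mean of the 3 small RNA controls present on both cards (snoRNA135, snoRNA202 and U87) was read 2.65 cycles later (1.91 to 3.32). On card B these 3 controls were 9.46 cycles above U6 in H3 and 8.17 to 9.12 cycles above it in the other 7 animals. Over the 33 stars read in all 8 animals, the delta Ct of H3 was by the median 0.85 cycles above that of the other animals, and the range of the other 7 animals was -0.34 to 0.18. In H4, 6 of these 33 stars were more than 2 cycles later than in the other animals and 3 were more than 2 cycles earlier. Liver markers were low and even, with a delta Ct of miR-122 from -0.61 to 0.52. Of the 6 muscle markers, miR-1, miR-133a, miR-133b and miR-206 had their lowest delta Ct in H1 and H2, with miR-133a at 1.42 and 3.71 there against 8.66 to 13.70 in the controls, and miR-208 and miR-499 were read in 2 animals each. The part of muscle RNA in the results below was not tested.

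Stars were read in fewer animals than their guides. Of the 105 stars, 33 gave a Ct in all 8 animals and 26 in none, whereas 72 of the 94 guide assays were read in all 8 and 6 in none. Over all 584 assays 46.2% were read in all 8 and 20.9% in none. Of the 74 stars whose guide was read in all 8 animals, 23 were also read in all 8 and 15 in none. Stars read in no animal included let-7b*, miR-106b*, miR-145*, miR-200c*, miR-20b* and miR-708*, and also the embryonic stem cell stars miR-293*, miR-294* and miR-302a*. The number of stars read was 59, 53, 57 and 62 in C1 to C4 and 66, 63, 58 and 48 in H1 to H4. The hypothyroid livers thus held both the highest and the lowest number, and the means differed by 1.00 star against a spread between animals of 6.18 (SD). The median delta Ct of the stars read was 14.9 to 16.2 per animal, against 7.63 to 8.68 for the guides. All stars were on card B and most guides on card A. The 3 small RNA controls on both cards were read 2.65 cycles later on card B. Strand and card can therefore not be told apart in these counts and medians.

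**Figure D1:**
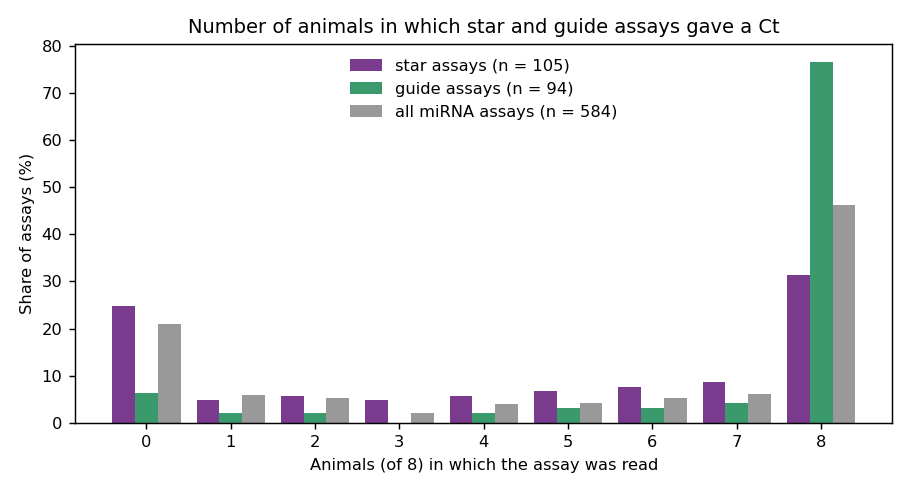
Share of star assays (n = 105), guide assays (n = 94) and all miRNA assays (n = 584) by the number of animals, of 8, in which a Ct was obtained. Stars fall mostly at the ends, with 26 assays in no animal and 33 in all 8, while 72 guides were read in all 8.

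The opposite case, a star read and its guide hardly or not at all, was also seen. There were 8 stars read in more animals than their guide, and 4 of them, picked after their values were seen, are described here. MiR-34c* had a delta Ct of 14.92, 15.18, 15.21 and 14.22 in the controls and 14.35, 15.49, 13.42 and 10.13 in the hypothyroid livers, while its guide, a p53-induced miRNA, was read only in H2 at 18.09. MiR-470* had 15.59, 15.25, 14.59 and 15.22 in the controls and 14.45, 15.09, 14.14 and 10.99 in the hypothyroid livers, and its guide was read in none. For both stars H4 was the lowest of the 8 animals by more than 3 cycles, and the groups overlapped. MiR-881* was read in 5 animals with the guide in none, and miR-330* in 7 with the guide in 2.

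Most stars were near the end of the assay range, and the wells show how large the error there was. Of the 79 stars read in any animal, 19 had a mean Ct below 32, 26 between 32 and 35, and 34 above 35. A pair of wells on the card was available for 65 stars, giving 520 assay and animal pairs, of which both wells were read in 161, 1 well in 113 and none in 246. Where both were read the wells differed by a median of 0.89 cycles. The median was 0.41 cycles below Ct 32, 0.85 from 32 to 35 and 2.13 above 35. The largest difference, 7.31 cycles, was for miR-186* in H1. The SD of delta Ct within groups had a median of 0.86 cycles over the 33 stars read in all animals, 0.70 for the 18 with a mean Ct below 32 and 1.00 for the other 15, against 0.45 for the 72 guides read in all animals.

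**Figure D2:**
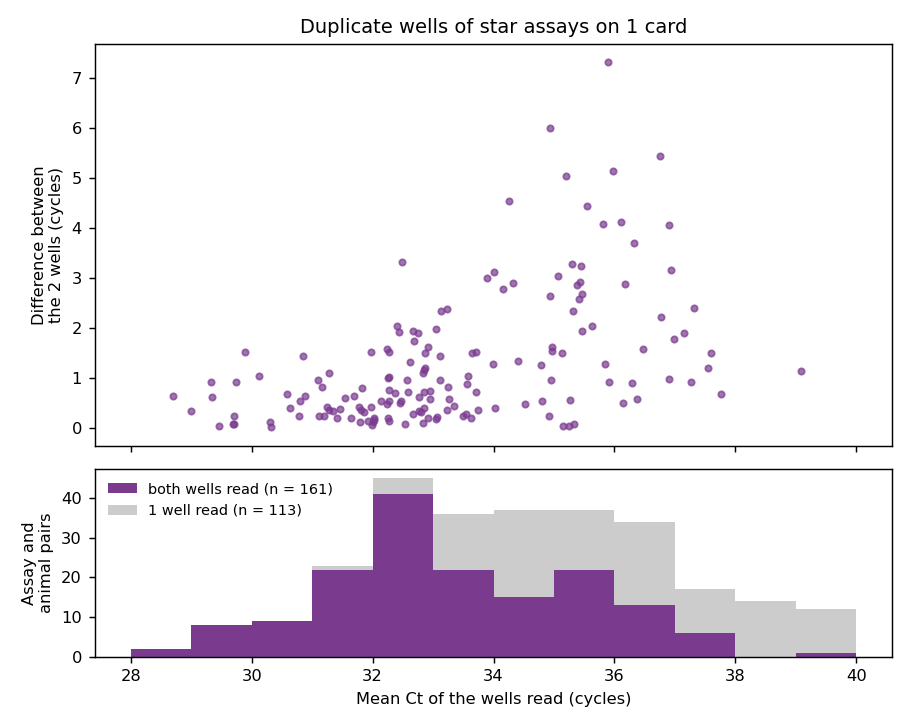
Upper panel, difference in cycles between both wells of a star assay on 1 card against their mean Ct, 1 point per assay and animal (n = 161). Lower panel, number of assay and animal pairs by Ct, with both wells read (161) or only 1 (113); differences are mostly under 2 cycles below Ct 32 and reach 7.31 above 35, where pairs with 1 well become common.

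Of the 33 stars read in all animals, mean delta Ct ran from 9.82 to 19.1 with a median of 14.6. MiR-483*, from within Igf2, the fetal growth factor gene that is expressed in liver, had the lowest delta Ct, 9.93, 9.62, 9.48 and 9.54 in the controls and 9.78, 10.21, 10.43 and 9.59 in the hypothyroid livers. The groups overlapped, and limma gave a log2 change of -0.36 (SE 0.29, adjusted p = 0.677). No assay of this name without the star was on the cards, so it was not compared with a guide. MiR-93*, from the cluster in Mcm7, a DNA replication gene, had 10.98, 10.28, 10.63 and 10.15 in the controls and 11.06, 10.89, 12.06 and 10.35 in the hypothyroid livers. H3 was the latest, and the change was -0.58 (SE 0.41). By contrast, miR-106b*, from the hairpin next to that of miR-93*, gave no Ct in any animal, although the guides of both were well read at a mean delta Ct of 4.63 and 7.52.

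MiR-503* and miR-322*, neighbours on chromosome X, had mean delta Ct of 11.4 and 11.9. MiR-503* had 11.83, 11.56, 11.30 and 11.36 in the controls and 10.74, 11.54, 11.81 and 11.15 in the hypothyroid livers, and miR-322* had 12.18, 12.03, 11.46 and 11.43 against 11.34, 11.73, 13.13 and 12.21. Both overlapped between groups, with a log2 change of 0.20 (SE 0.32) for miR-503* and -0.33 (SE 0.43) for miR-322*. The sign for miR-503* turned with the mean of well-read miRNAs as reference, to -0.03, and with the run day of the cards as a block, to -0.17. MiR-31* stayed within a narrow range, with 11.36, 10.87, 11.78 and 11.61 in the controls and 11.78, 11.76, 12.08 and 12.01 in the hypothyroid livers. MiR-28* ranged from 11.24 to 12.60 over the 8 animals. MiR-376b*, from the imprinted Dlk1-Dio3 locus, ranged from 11.16 in H1 to 13.80 in H3, both hypothyroid.

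**Figure D3:**
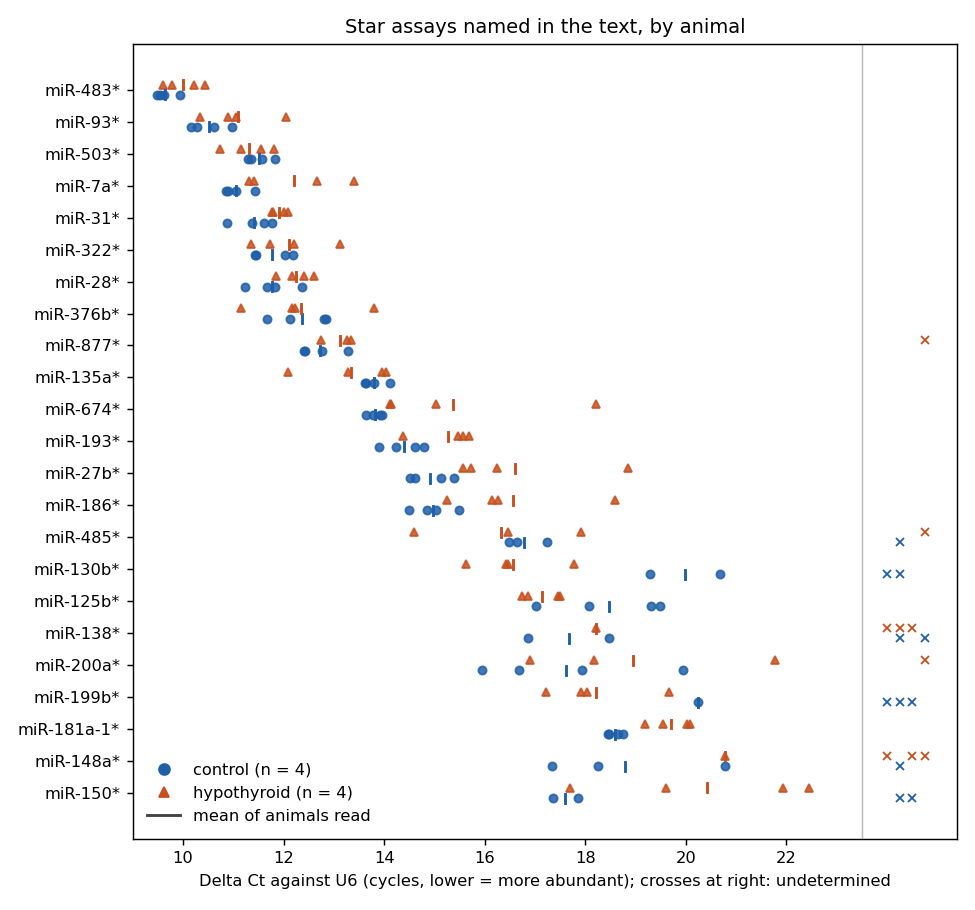
Delta Ct against U6, in cycles, of the 23 stars chosen by the naming rule, with control livers as circles and hypothyroid livers as triangles (n = 4 each). Vertical bars are the means of the animals read and crosses at the right mark undetermined animals; in most stars the groups overlap, and undetermined animals appear from miR-877* downwards.

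Most stars were read later than their guides. For 52 pairs both strands were read in at least 4 animals, and with U6 of each card as reference the star was later by a median of 7.61 cycles (range of the pair means -2.18 to 17.3). With the 3 small RNA controls on both cards as reference the median was 3.29 cycles, because the choice moves each pair on different cards by 4.24 cycles by the mean. At the upper end were miR-17* (17.3 cycles) and miR-24-1* (17.1), the stars of abundant guides. Of the liver-rich list, miR-148a* was 13.8 cycles and miR-21* 12.6 cycles later than the guide. By contrast, miR-22*, on the same card as its guide, was only 1.36 cycles later. The other star of that list, miR-101a*, was 12.4 cycles later in the 1 animal in which it was read. The size of a gap between cards is therefore bound to the reference.

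For 6 pairs the star was the earlier strand with U6, and for 14 pairs with the 3 controls. Of the 6, miR-877* and miR-485* shared card B with their guides, so that no reference enters. MiR-877*, from a mirtron (a hairpin made by splicing) at chr17:35960731-35960752 (minus strand) within the span of Abcf1, had a delta Ct of 12.76, 13.29, 12.40 and 12.43 in the controls and 12.74, 13.33 and 13.27 in H1 to H3. Its guide had 15.37, 14.15, 15.08 and 15.12 in the controls and 14.40, 15.56, 15.16 and 10.65 in the hypothyroid livers. The star was lower by 2.09 cycles ± 0.68 (SD, n = 7), in 7 of 7 animals, while in H4 the star was undetermined and the guide at its lowest. MiR-485* was lower than its guide by 0.86 cycles ± 0.91 (SD, n = 5), in 5 of 5 animals. Differences in efficiency between both assays were not measured.

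The other 4 pairs were on different cards. MiR-7a* was below miR-7a, a miRNA of endocrine cells, by 1.51 cycles ± 1.25 (SD, n = 7), miR-503* below miR-503 by 0.96 ± 0.82 (SD, n = 8) and miR-674* below miR-674 by 0.73 ± 1.26 (SD, n = 6). MiR-135a* was below miR-135a by 2.18 ± 2.21 (SD, n = 5). It was read in all 8 animals at 13.80, 14.11, 13.63 and 13.65 in the controls and 13.96, 14.04, 13.28 and 12.09 in the hypothyroid livers, whereas the guide was read in C2, C4, H1, H2 and H3 at 18.65, 16.37, 12.78, 17.50 and 14.61. The star varied less between animals than the guide, and its log2 change was 0.45 (SE 0.46) where that of the guide was 2.55 (SE 1.58) by limma. Without H4 the change of the star was 0.0371, and without 1 animal that of the guide ranged from 1.46 (without H1) to 3.82 (without H2). With the 3 controls as reference the star was the earlier strand in every animal in which both were read, for each of these 4 pairs. Of the 52 pairs, the remaining ones on card B were miR-22* and miR-378*, 1.36 ± 0.41 and 8.59 ± 1.07 cycles later than their guides (SD, n = 8).

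**Figure D4:**
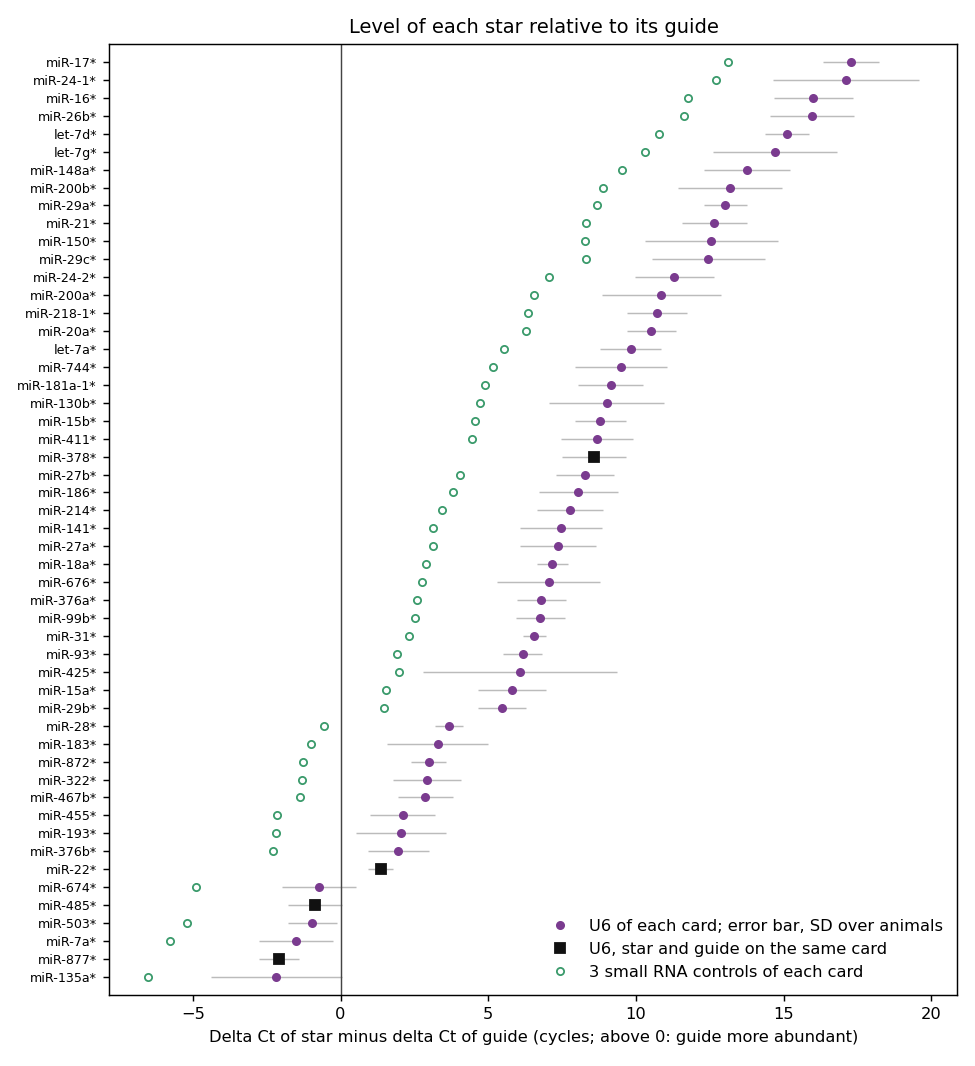
Mean difference in delta Ct, star minus guide, for the 52 pairs read together in at least 4 animals, with U6 as reference (filled, bar = SD over animals), on the same card (squares), or with 3 small RNA controls as reference (open). Values above 0 mean a guide read earlier than its star against the reference, and efficiencies of the assays were not measured. The U6 median is 7.61 cycles and 6 pairs lie below 0, against 14 pairs with the 3 controls.

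No star passed the adjusted threshold in the hypothyroid livers. Of the 59 stars read in at least 2 animals of each group, 0 passed an adjusted p below 0.1 by limma with Benjamini-Hochberg adjustment over the 367 assays tested, where 0 assays in all passed (0.0%). The smallest adjusted p of a star was 0.583. Unadjusted p was below 0.05 for 5 stars, and the methods' F-test gave 0 after adjustment and 4 at an unadjusted p below 0.1. At an unadjusted p below 0.1, 8 of 59 stars (13.6%) were reached against 12.5% of all assays, 2 higher (3.39%, against 10.1% of all assays) and 6 lower (10.2%, against 2.45%). With the small RNA controls of each card as reference the 8 became 11, 7 higher and 4 lower. With the mean of well-read miRNAs as reference it was 14, 2 higher and 12 lower, so the split by direction moved with the reference. A change of reference moves the other assays too. The shares over all assays under these references are not given, so these counts are not read as a result about stars. The median log2 change was -0.36 over the 59 stars and 0.23 over all assays, and on card B the 47 other assays had 0.43. Star assays of rat and of the miR-30 family were not left out of these 47. With the small RNA controls of each card the medians were -0.10 for the stars and 0.04 for all assays, and without H3 they were -0.11 and 0.20. None of the 33 stars read in all animals was above the controls in every hypothyroid animal (1.11% of all such assays), and 3 were below (miR-181a-1*, miR-27b* and miR-674*; 1.85% of all such assays).

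MiR-181a-1*, the star of a miRNA known from lymphocyte development, had the smallest p of the stars read in all animals. Its delta Ct was 18.48, 18.75, 18.45 and 18.65 in the controls and 20.03, 19.55, 19.19 and 20.08 in the hypothyroid livers, so each hypothyroid animal was later than every control. The log2 change was -1.13 (SE 0.29, limma p = 0.00477, adjusted p = 0.583, exact permutation p = 0.0286), the latter being the smallest that 4 against 4 animals can give. It was read late, at Ct 35.5 to 37.7, and its wells in C4, at 38.2 and 34.0, lay further apart than the groups. In C2, C3, H2 and H4 only 1 well was read.

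MiR-27b*, the star of a miRNA of lipid metabolism in liver, had a delta Ct of 15.39, 14.52, 14.61 and 15.13 in the controls and 15.57, 15.73, 16.25 and 18.84 in the hypothyroid livers. The groups did not overlap, but H4, where only 1 well was read, lay far from the rest. The log2 change was -1.68 (SE 0.72, limma p = 0.0478, adjusted p = 0.623, exact permutation p = 0.0286), and without H4 it was -0.94. MiR-186* had 15.04, 14.85, 14.49 and 15.49 in the controls and 18.60, 16.27, 16.15 and 15.25 in the hypothyroid livers. Its change was -1.60 (SE 0.68, limma p = 0.0476, adjusted p = 0.623, exact permutation p = 0.0571) and -0.92 without H1, the animal whose wells were at 32.2 and 39.5.

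MiR-193* and miR-7a* were read well before Ct 35 in every animal. MiR-193* had 14.80, 13.90, 14.61 and 14.24 in the controls and 15.46, 15.69, 15.56 and 14.37 in the hypothyroid livers, with H4 among the controls. The log2 change was -0.88 (SE 0.38, limma p = 0.0503, adjusted p = 0.623, exact permutation p = 0.0857). MiR-7a* had 11.43, 11.05, 10.89 and 10.86 in the controls and 11.42, 11.31, 12.67 and 13.40 in the hypothyroid livers, where H1 and H2 were at the level of C1 and H3 and H4 were late. Its change was -1.14 (SE 0.50, limma p = 0.0542, adjusted p = 0.623, exact permutation p = 0.0857) and -0.74 without H4. MiR-674* had 13.96, 13.64, 13.77 and 13.91 in the controls and 14.11, 14.13, 15.03 and 18.20 in the hypothyroid livers, all later than the controls, but with H4 far from the rest. The log2 change was -1.55 (SE 0.87, limma p = 0.114, adjusted p = 0.623, exact permutation p = 0.0286), and -0.60 without H4.

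Of the stars that were earlier in hypothyroid livers, miR-130b* had the largest estimate. It was undetermined in C1 and C2, at 19.29 and 20.68 in C3 and C4, and at 16.46, 16.42, 17.77 and 15.63 in H1 to H4. All animals read in the hypothyroid group were earlier than the controls read, with a log2 change of 3.42 (SE 0.72, limma p = 0.00323, adjusted p = 0.583, exact permutation p = 0.0667) over 2 controls and 4 hypothyroid animals. The exact p is the smallest this number allows. With undetermined wells set to 40 cycles the change was 3.31. Every control well read was above Ct 35, so no control remained when a Ct above 35 was counted as not read. In C4, H1 and H2 only 1 well was read. The wells of C3 (35.4 and 38.5) and of H3 (36.6 and 33.5) lay far apart. MiR-125b*, the star of an abundant developmental miRNA, had 17.01, 18.07, 19.49 and 19.30 in the controls and 16.74, 16.87, 17.49 and 17.46 in the hypothyroid livers. C1 was within the hypothyroid range, the change was 1.33 (SE 0.57, limma p = 0.0493, adjusted p = 0.623, exact permutation p = 0.0857), and it turned to -0.45 when a Ct above 35 was counted as not read.

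The comparison within each animal of star against guide asks whether a star and its guide moved by the same amount. Some guides come from more than 1 hairpin, such as miR-24, the guide of miR-24-1* and miR-24-2*, and there the difference is not between the strands of a single precursor. MiR-181a-1* and miR-7a* (miR-7a-1-3p in RefSeq) also carry a locus number that their guides lack, so the same may hold for these pairs. Of 49 star and guide pairs 0 passed an adjusted p below 0.1 by limma after Benjamini-Hochberg adjustment over 51 pairs (0.0%), with 5 at an unadjusted p below 0.05. At an unadjusted p below 0.1 there were 9 pairs, against 17.6% of the 51 pairs, which are nearly the same pairs. The star was higher relative to its guide in 1 (1.96% of all pairs) and lower in 8 (15.7%). The median log2 change of star minus guide was -0.55. With the small RNA controls of each card as reference the count was 5, with 3 higher and 2 lower, and the median -0.14. Without H3, whose card B stood apart in the controls, the median was -0.22.

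MiR-181a-1* and miR-181a had estimates of opposite sign. The star name carries a locus number and the guide name does not, so these need not be the strands of a single precursor. The guide had a delta Ct of 10.38, 10.27, 10.23 and 10.81 in the controls and 9.37, 10.12, 9.16 and 9.70 in the hypothyroid livers, each earlier than every control, while the star was later in each. Minus delta Ct of the star less that of the guide was -8.10, -8.48, -8.22 and -7.84 in the controls and -10.65, -9.43, -10.02 and -10.37 in the hypothyroid livers. The difference between groups was -1.96 (SE 0.54, limma p = 0.00369, adjusted p = 0.188, exact permutation p = 0.0286). It kept its sign in every setting in which it could be fitted, and was -1.46 with the small RNA controls of each card. Every hypothyroid well of miR-181a-1* that was read was above Ct 35. No hypothyroid animal therefore remained when a Ct above 35 was counted as not read, and the difference could not be fitted there. The pair had an adjusted p by limma of 0.0299 among pairs read in all 8 animals (25 pairs), and 0.0624 without H3. The log2 change of the guide was 0.83 (SE 0.31, limma p = 0.0263, adjusted p = 0.623, exact permutation p = 0.0286).

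The other 7 pairs with a lower star were less even. For miR-27b the difference was -7.77, -7.10, -7.63 and -7.81 in the controls and -8.43, -8.23, -9.00 and -10.22 in the hypothyroid livers, without overlap. The change was -1.40 (SE 0.60, limma p = 0.0404, adjusted p = 0.412, exact permutation p = 0.0286), and -0.90 with the small RNA controls of each card. For miR-7a, whose guide was undetermined in C1, it was 3.18, 2.50 and 2.03 in C2 to C4 and 0.53, 1.17, 1.73 and -0.55 in H1 to H4, a change of -1.85 (SE 0.72, limma p = 0.0269, adjusted p = 0.389, exact permutation p = 0.0571). All values above 0 are animals in which the star was the earlier strand, and H4 was the exception. For miR-150, a lymphocyte miRNA, the change was -3.10 (SE 1.21, limma p = 0.0305, adjusted p = 0.389, exact permutation p = 0.133) over 2 controls and 4 hypothyroid animals. Its star was at Ct 34.8 to 39.3 and the change turned to 0.21 with undetermined wells at 40 cycles and to 0.33 with a Ct above 35 counted as not read. MiR-186, miR-24-2, miR-200b and miR-411 had changes of -1.60, -1.45, -2.07 and -1.51, each with overlap between the groups. In H4 the gap of miR-24-2* and of miR-411* was the widest of the 8 animals. MiR-130b was the pair with the higher star, by 2.98 (SE 1.01, limma p = 0.0156, adjusted p = 0.389, exact permutation p = 0.0667), and by 3.70 without H3, where limma gave an adjusted p of 0.0485. With the study as a block it was 2.02.

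**Figure D5:**
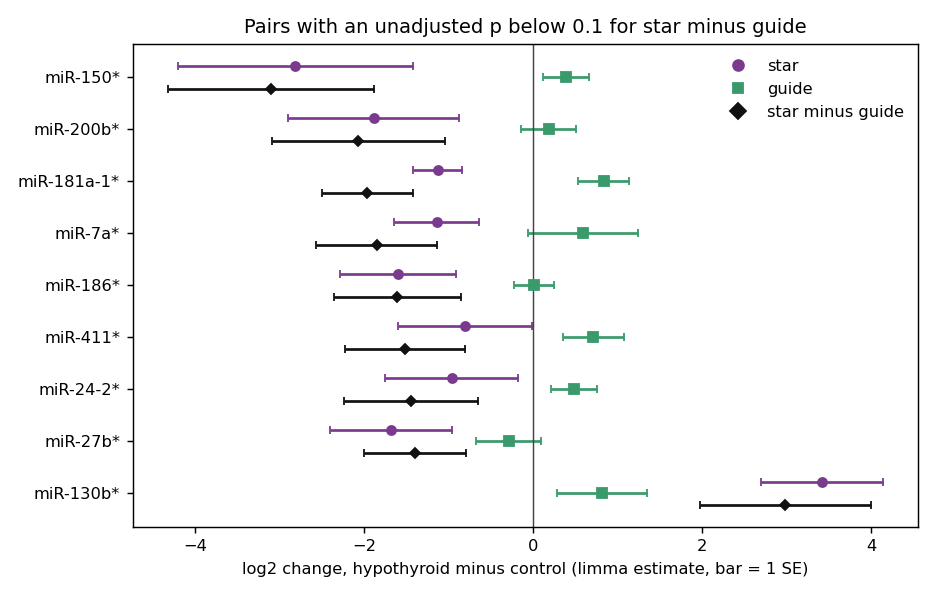
Log2 change, hypothyroid minus control, of the star, its guide and their difference within each animal for the 9 pairs with an unadjusted p below 0.1, with bars of 1 SE from limma. In 8 pairs the difference lies below 0, led in size by miR-150* at -3.10, and in miR-130b* it is 2.98; no adjusted p is below 0.188.

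The number of animals with a Ct differed by at least 3 between the groups for 1 star. MiR-199b* was undetermined in C1 to C3 and at 20.23 in C4, and at 18.04, 17.91, 17.21 and 19.67 in H1 to H4. It was the 1 star of 105 read in at least 3 more hypothyroid than control animals, a share near the 0.856% of all assays. In the other direction, 0 stars were read in at least 3 more controls (0.514% of all assays). It was read at Ct 34.5 to 37.7 and both wells gave a Ct in H1 and H4 but 1 well in C4, H2 and H3. No assay of the same name without the star was on the cards. MiR-214*, from another chromosome and grouped with it in the list of families, had a log2 change of 0.57, at an adjusted p of 0.783 by limma.

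The study lists 4 stars as altered, miR-138*, miR-199b*, miR-148a* and miR-200a*, a choice made on these samples. MiR-138* was read in C1 and C3 at 18.47 and 16.86 and in H4 at 18.21, too few animals for a test, and its guide was at 9.68 to 12.75 in all 8. MiR-148a* was read in C1, C3 and C4 at 20.78, 17.34 and 18.25 and in H2 at 20.77, while miR-148a, one of the most abundant liver miRNAs, was at 4.84 to 5.91 in all 8. MiR-200a*, of the epithelial miR-200 family, had 19.94, 17.94, 16.67 and 15.94 in the controls and 18.17, 16.90 and 21.78 in H1 to H3, and was undetermined in H4. The controls spanned 4 cycles and held all hypothyroid values but H3, with a log2 change of -1.32 (SE 1.38, adjusted p = 0.694 by limma) and 0.09 without H3. Its neighbour with the same seed, miR-200b*, was at 16.20 to 21.11 in 6 animals, with a log2 change of -1.89 (SE 1.01, adjusted p = 0.623 by limma).

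Among families, of 7 let-7 stars 6 were read in some animal and 0 in all 8, against 31.4% of stars and 46.2% of all assays. Let-7a* was read in 7 animals, with both wells each time, and let-7d* in 6, and the 3 tested had log2 changes of -0.11 to 1.86. For the miR-17 cluster and its paralogs 5 of 8 stars were read in some animal, 4 were tested and had log2 changes of -1.24 to 0.29. The 3 stars of miR-15 and miR-16, which restrain the cell cycle, were all read in 8 animals, with changes of -0.84 to 0.71. The 3 miR-29 stars, whose guides target collagen mRNAs, had changes of -0.86 to 0.20. Of 11 stars from the Dlk1-Dio3 list 7 were read in some animal and 5 tested, with changes of -0.80 to 0.65. No star of these families reached an unadjusted p below 0.1 by limma, where 13.6% of all stars and 12.5% of all assays did. The miR-181 family held 1 star, miR-181a-1*, which reached it. The muscle list held miR-133a* alone, which was read only in C3, at 20.22, although its guide was at 1.42 in H1.

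Stars of 2 related clusters, picked after their values were seen, are set side by side. MiR-27b* and miR-24-1* have 424 bases between their hairpins, and miR-27a* and miR-24-2* have 57. MiR-24-1* was read in C2 and in H1 to H3 at 16.49, 18.98, 20.48 and 21.46, whereas miR-24-2* was read in all animals at 12.40 to 16.39, although both stars come with the same guide. MiR-24-1* was the later assay in each of the 4 animals in which both were read, and whether the assays differ in efficiency was not measured. MiR-27a* had 15.86, 14.93, 15.47 and 16.11 in the controls and 17.90, 15.84, 15.78 and 15.44 in the hypothyroid livers, with H1 the latest. Its log2 change was -0.65 (SE 0.58, adjusted p = 0.680 by limma).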

How the data were processed

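RNA of 4 control and 4 hypothyroid livers was reverse transcribed with primer pools A and B and run on TLDA cards A and B. The authors deposited Ct values per well and, separately, log2-scale values, the average delta Ct against U6. Ct values were taken from the card exports. For each animal and card the mean of the 4 MammU6 wells was subtracted, wells of an assay were averaged, and undetermined wells were kept as missing. Minus delta Ct was fitted with limma 3.58.1 (R 4.3.3), with Benjamini-Hochberg adjustment over all assays, or all star and guide pairs, read in at least 2 animals per group. The threshold of 0.1 is the one the study's text uses for these cards. The methods' F-test with resampled residuals was an alternative, since delta Ct is already a log2 value. Single values were also tested with an exact two-sided permutation test.

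Stars named in the text were the 8 with the lowest delta Ct, those with the smallest p for the star (up to 5 per direction) or for star minus guide (up to 4 per direction), those read in at least 3 more animals of a group, those below their guide, 4 that the study lists, and the guide of each. Others are said to be picked after their values were seen. The members and lists were chosen with earlier results of these data known. The guide of a star was the assay of the same name without the star, or without the star and the locus number. RefSeq names were paired to stars by hand. Litters differed between animals per the methods. The fit was tested on simulated data. The run day of the cards as a block, reading of every well, and the 3 controls on both cards as reference were alternatives chosen after seeing the data. The authors' fold changes and the mRNA arrays were not used. Ct gives no read depth, and the wells and the number of animals limit the precision.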

Additional observations from a re-analysis of the deposited data

Results flagged for a closer look

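Of 72 groups of 4 animals tested among the named stars and guides, 2 held an animal far from the others, where chance flags about 1 in 20. The guide miR-674 had a delta Ct of 17.01 in the control C3, and the nearest control was at 14.26. The guide miR-193 had a delta Ct of 15.91 in the hypothyroid H4, and the nearest hypothyroid animal was at 12.76. The gap made up 0.858 and 0.892 of the range of the group. Both are guides.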

How the results depend on the processing

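No star passed the adjusted threshold in any alternative. A tally was made for single stars, guides and their differences, none of which passed the threshold in the main fit. Of these alternative values, 1139 kept their direction and side of the threshold, 73 reversed and 3 passed it. Counts and medians are outside this tally. Stars at an unadjusted p below 0.1 (8) numbered 4 with the F-test on delta Ct, 4 on log2 of delta Ct, 4 with Ct above 35 as not read, 14 with the mean of well-read miRNAs as reference (2 higher, 12 lower), 5 with every well read and 11 with the small RNA controls (7 higher, 4 lower). Leaving out single animals gave 5 (without C4) to 14 (without H1), with 13 without H4. Shares over all assays are not given for these alternatives, so the counts are not read as a result about stars. The median over stars ranged from -0.61 with the run day block to -0.10, and that over all assays, 0.23, was -0.11 with the mean of well-read miRNAs.

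Pairs past the adjusted threshold (0) were 1 among pairs read in all 8 animals, and 0 to 2 on leaving out single animals (2 without H3). Pairs at an unadjusted p below 0.1 (9) were 4 with the F-test on delta Ct, 17 with undetermined wells at 40 cycles (4 higher, 13 lower), and 5 each with Ct above 35 as not read, the small RNA controls, the mean of well-read miRNAs and the controls on both cards, and 6 to 12 on leaving out single animals. The median of star minus guide was -0.14 with the small RNA controls and -0.72 to -0.22 on leaving out single animals. Stars read per animal differed by -2.75 with Ct above 35 as not read, -1.75 with every well read and -1.42 to 4.58 on leaving out single animals. Stars read in at least 3 more animals of a group numbered 0 to 5 then (5 without C4, 0 without H1 or H4). Leaving out an animal makes the groups unequal while the limit stays at 3, so this count can move by that alone.

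Single values turned sign as follows. With Ct above 35 as not read these were miR-125b* (-0.45), miR-150* (0.79), miR-150* minus guide (0.33), miR-674* minus guide (0.21) and miR-674 (-0.50). With undetermined wells at 40 cycles they were miR-150* (0.60), miR-150* minus guide (0.21), miR-674* minus guide (1.44) and miR-674 (-2.99). With the run day block they were miR-503* (-0.17), miR-376b* (-0.80), miR-485* (-0.62), miR-31* minus guide (0.0735), miR-148a (-0.0441), miR-186 (-0.17), miR-28 (-0.31), miR-503 (-0.44) and miR-7a (-0.0323). With the deposited delta Ct they were miR-485* minus guide (1.43) and miR-485 (-1.15). With the mean of well-read miRNAs they were miR-503* (-0.0315), miR-376b* (-0.21), miR-148a (-0.22), miR-186 (-0.33), miR-28 (-0.27), miR-503 (-0.27) and miR-674 (-0.17). With the small RNA controls they were miR-93* minus guide (0.10), miR-31* minus guide (0.27), miR-877* (0.0798), miR-148a (-0.15), miR-186 (-0.26), miR-28 (-0.20) and miR-503 (-0.20), and with the controls on both cards miR-31* minus guide (0.0243), miR-877* (0.0366) and miR-186 (-0.0532). With the study or the replicate block they were miR-674* minus guide (0.0916) and miR-674 (-0.41).

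On leaving out single animals the log2 change ranged through 0 for miR-322* (-0.58 to 0.0117), miR-376b* (-0.37 to 0.51), miR-485* (-0.40 to 1.26), miR-200a* (-2.35 to 0.0894), and for star minus guide of miR-93* (-0.73 to 0.0002), miR-503* (-0.25 to 0.56), miR-322* (-0.64 to 0.59), miR-193* (-0.72 to 0.90) and miR-674* (-0.90 to 0.21). The same held for the guides miR-148a (-0.0808 to 0.27), miR-186 (-0.0471 to 0.0625), miR-200a (-0.25 to 0.17), miR-27b (-0.45 to 0.0434), miR-28 (-0.0433 to 0.19), miR-322 (-1.11 to 0.34), miR-503 (-0.55 to 0.40), miR-674 (-0.50 to 0.57) and miR-877 (-0.11 to 1.53). The causes were not tested.

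Replicate numbers did not pair the animals: the deviations of same-numbered animals correlated at -0.01, -0.04, 0.15 and -0.22 over 270 assays, and with the replicate block 8 stars (2 higher, 6 lower) and 8 pairs were at an unadjusted p below 0.1, with 0 past the adjusted threshold.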
